A study of Homo sapiens with 12 samples.

Results

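The hyaluronan matrix genes TNFAIP6, HAS2, HAS3, PTX3, CD44 and VCAN were followed across 12 Affymetrix expression arrays of HK-2 cells, an immortalised line of human renal proximal tubule epithelium. The 6 genes were listed by name, and TNFAIP6 was put on the list because its level was much lower at the later time. Where a gene had several probe sets, the one with the highest mean was read. These are 6 of the 19775 genes that the arrays name with a single symbol. A gene was tested if its probe set exceeded 4 on the log2 scale on all 3 arrays of at least 1 group, which held for 10508 genes and for 5 of the 6 listed ones. HAS2 was the exception.

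There were 4 groups of 3 arrays: cells given the control vehicle for 12 h, CsA for 12 h, the control vehicle for 48 h, and CsA for 48 h. CsA is the usual short form of cyclosporine A, a calcineurin inhibitor used against transplant rejection. The labels write it only as CsA, and its dose is not given in the sources used here. All 4 groups were the same cell line, seeded 24 h before treatment and treated at about 90% confluency. The shared medium held human EGF at 10 ng/ml, hydrocortisone at 36 ng/ml and bovine insulin at 5 µg/ml, so the control cells carried these agents too. The labels call the arrays of a group biological replicates and do not say how the cultures were separated. The p-values measure the spread between these arrays.

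Hyaluronan is a long unbranched sugar polymer. HAS enzymes spin it out through the plasma membrane from UDP-glucuronate and UDP-N-acetylglucosamine. Outside the cell it is bound by CD44, a cell surface receptor, and by versican (VCAN), a large proteoglycan. The secreted protein TSG-6 (TNFAIP6) moves heavy chains from inter-alpha-inhibitor onto hyaluronan, and the pentraxin PTX3 helps to hold this cross-linked matrix together. In the injured kidney, hyaluronan accumulates in the interstitium and CD44 on tubule cells, and TNFAIP6 and PTX3 are known as genes switched on by inflammatory signals.

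Promoters of 3 genes are shown because TNFAIP6 and HAS3 had the lowest 48 h values relative to 12 h among the listed genes, and PTX3 is the other inflammatory gene of the list. Each is the 250 bases before the annotated start on the + strand, from RefSeq on GRCh38.p14, written 5′ to 3′. They lie at chr2:151357342-151357591 (TNFAIP6), chr16:69107290-69107539 (HAS3) and chr3:157436600-157436849 (PTX3). Capitals mark a match to the AP-1 motif in TNFAIP6 and to the kB motif in PTX3.
TNFAIP6: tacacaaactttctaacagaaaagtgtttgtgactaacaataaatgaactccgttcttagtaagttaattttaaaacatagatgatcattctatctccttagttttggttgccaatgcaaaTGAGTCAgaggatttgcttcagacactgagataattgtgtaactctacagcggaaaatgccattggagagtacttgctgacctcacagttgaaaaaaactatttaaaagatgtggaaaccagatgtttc
HAS3: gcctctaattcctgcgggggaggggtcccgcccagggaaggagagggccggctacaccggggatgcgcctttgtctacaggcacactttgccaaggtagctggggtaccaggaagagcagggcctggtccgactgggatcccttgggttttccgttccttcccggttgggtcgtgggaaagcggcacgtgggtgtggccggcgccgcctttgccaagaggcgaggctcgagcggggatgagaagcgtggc
PTX3: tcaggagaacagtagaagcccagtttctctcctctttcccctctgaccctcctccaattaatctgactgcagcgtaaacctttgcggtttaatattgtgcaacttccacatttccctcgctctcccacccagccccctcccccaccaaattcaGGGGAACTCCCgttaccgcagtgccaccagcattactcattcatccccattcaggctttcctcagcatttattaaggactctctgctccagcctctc

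Of the 6 genes, 5 had a RefSeq promoter in the tables used, and 27303 promoters of the same length were searched on both strands. The AP-1 motif TGANTCA occurred in 6.60% of all promoters and, among the 5, in that of TNFAIP6, where its first base lay 129 bases before the start. The kB motif, the 10-letter degenerate site bound by NF-kappaB, occurred in 9.57% of all promoters. Among the 5 it occurred in that of PTX3, as 2 overlapping matches that began 97 and 96 bases before the start. The core GGAAAA, bound by NFAT factors, which calcineurin activates, was in 21.4% of all promoters, and in those of TNFAIP6 (78 bases before the start) and HAS3 (103 bases before it). The C/EBP motif TTNNGNAA was in 33.6% of all promoters and in those of TNFAIP6 and PTX3, and TATAAA was in 11.1% and in none of the 5. No listed motif was found in the windows of CD44 and VCAN. A match is a description of letters in a window, not a binding site.

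The arrays were alike in scale, with medians between 2.85 and 2.96 and with 38.3% to 38.8% of probe sets above 4. The 48 h arrays differed more among themselves than the 12 h arrays: the median SD over genes was 0.12 in both 12 h groups, 0.21 in the 48 h controls and 0.28 in CsA at 48 h. Arrays 1 and 3 of both 48 h groups stood apart most: the weights that limma estimates from each array's residual spread were 0.149 to 0.540 for these 4 and 1.36 to 2.67 for the others, and results that rest on them are given with and without them. At a given time, same-numbered CsA and control arrays deviated from their groups alike. Of the 10 proximal tubule markers measured, PAX8, CDH6 and HAVCR1 were above 4 on all arrays and AQP1, GGT1, ANPEP, LRP2, CUBN and ALPL on none, while 6 of 6 epithelial markers were above 4 on all arrays. Of 9 fibroblast and pericyte markers 5, COL1A1, DCN, LUM, ACTA2 and THY1, were above 4 on all arrays and COL1A2, COL3A1, PDGFRA and PDGFRB on none. Of 6 endothelial markers 2, PECAM1 and CLDN5, were above 4 on all arrays and CDH5, VWF, KDR and TEK on none. Of 6 leukocyte markers none reached 4 on any. Because these are bulk samples, fewer cells expressing a gene and less RNA per cell cannot be told apart.

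TNFAIP6 was high at 12 h and near the floor of the arrays at 48 h. In the 12 h controls its log2 level was 8.20, 8.66 and 9.37 on arrays 1, 2 and 3. With CsA at 12 h it was 7.84, 7.98 and 8.70. The 12 h groups overlapped, with array 3 the highest of each.

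In the 48 h controls TNFAIP6 stood at 3.07, 3.70 and 5.30 (log2), and with CsA at 48 h at 2.37, 3.27 and 5.27. Array 3 was again the highest and array 1 the lowest in both groups, and 4 of the 6 arrays were below 4. No 48 h array overlapped the 12 h arrays: the lowest 12 h level was 7.84 and the highest 48 h level 5.30, a gap of 2.54.

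The group means of TNFAIP6 were 8.74 ± 0.59 in 12 h controls, 8.18 ± 0.46 with CsA at 12 h, 4.02 ± 1.15 in 48 h controls and 3.64 ± 1.49 with CsA at 48 h (log2, SD, n = 3 each). The 48 h mean was below the 12 h mean by a log2 difference of -4.72 in controls and of -4.54 under CsA. TNFAIP6 was chosen for this difference, so it is a description and was not tested. Without array 3 of both 48 h groups the differences were -5.36 and -5.36, and without array 1 they were -4.25 and -3.90. A second TNFAIP6 probe set gave -4.50 and -4.21.

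**Figure D1:**
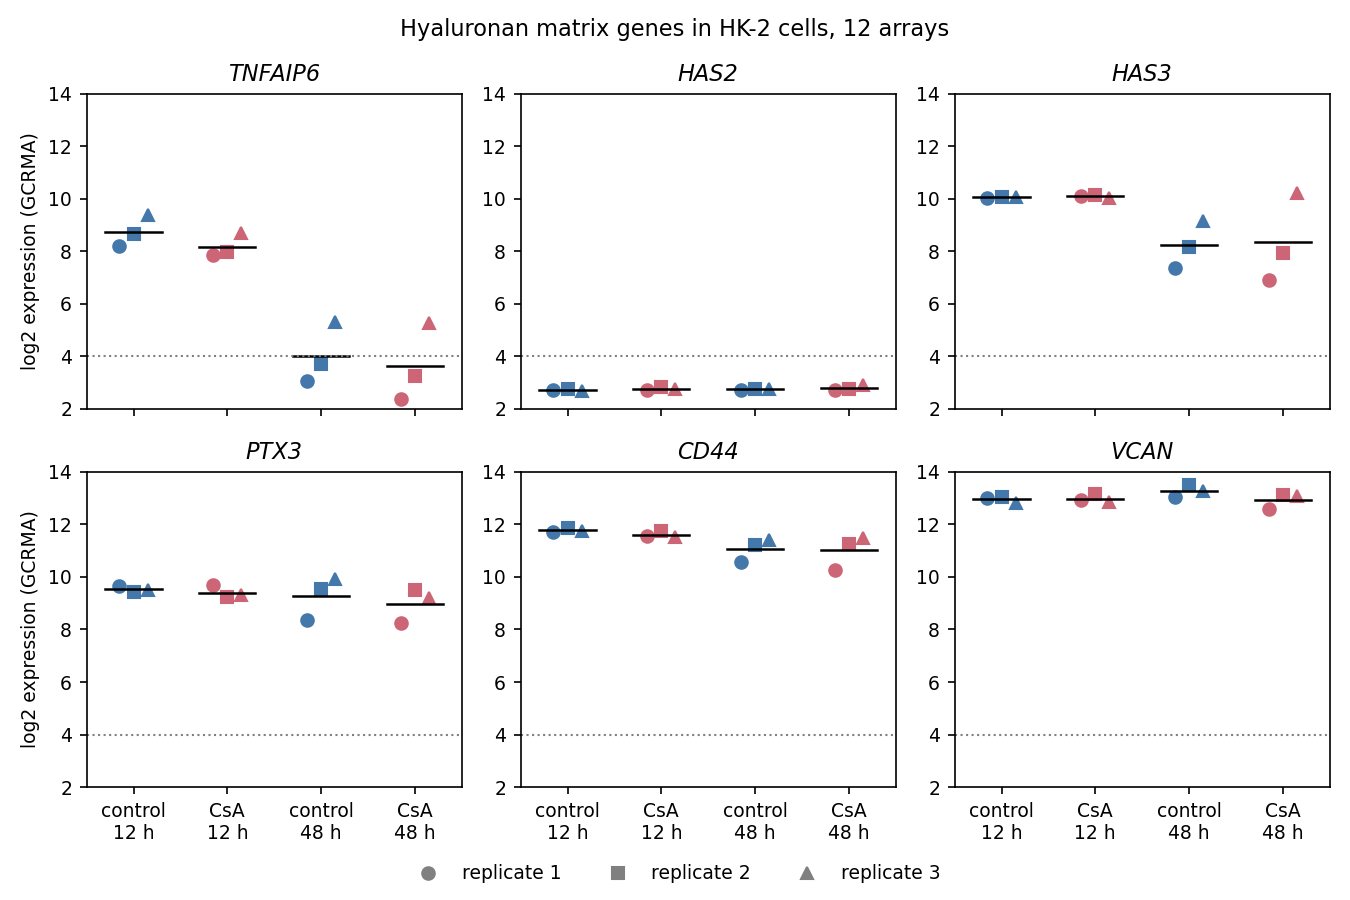
Log2 expression (GCRMA) of the 6 genes on each array, with 1 panel per gene, groups on the x axis, marker shape for the replicate number, a bar for the group mean (n = 3) and a dotted line at the filter of 4. TNFAIP6 separates 12 h from 48 h with a gap of 2.54, HAS2 stays below the filter on all arrays, and HAS3 spreads from 6.92 to 10.23 at 48 h.

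CsA and control were not told apart for TNFAIP6 at either time. At 12 h CsA was below control in each same-numbered pair, by log2 differences of -0.36, -0.68 and -0.67. The mean difference was -0.57 (SE 0.73, 95% interval -2.25 to 1.11), with a limma adjusted p of 1.00. That SE shares its spread with the 48 h arrays. In the 6 arrays of 12 h alone the SE was 0.34 and the limma adjusted p 0.82. With the pairs as a block in these 6 arrays, a fit added after seeing the data, they were 0.085 and 0.14. CsA was lower in all 3 pairs for 22.5% of tested genes at 12 h.

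At 48 h the TNFAIP6 pairs differed by -0.70, -0.43 and -0.02, for a mean of -0.39 (SE 0.73, 95% interval -2.07 to 1.29; limma adjusted p = 1.00). Here 16.2% of tested genes were lower in all 3 pairs. In pairs 1 and 2 both arrays were below 4, so at 48 h these differences lie near the floor of the arrays and TNFAIP6 was tested there only because it passed the filter at 12 h. The intervals come from the fit without pairs. With the same-numbered pairs as a fixed replicate block the SE was 0.14 at both times and the limma adjusted p 0.46 at 12 h and 0.37 at 48 h. The 48 h mean changed sign without CsA array 1 (0.25) and without control array 3 (0.25). The CsA difference at 48 h minus that at 12 h was 0.18 (SE 1.03; limma adjusted p = 1.00).

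PTX3, the other matrix organiser of the list, had group means between 8.98 and 9.52 (log2). The 12 h controls read 9.65, 9.41 and 9.51 (log2) and CsA at 12 h read 9.68, 9.23 and 9.30. The 48 h controls read 8.36, 9.52 and 9.93, and CsA at 48 h read 8.23, 9.51 and 9.21. All groups overlapped, and array 1 was the lowest of both 48 h groups by about 1 unit or more. The means were 9.52 ± 0.12 and 9.40 ± 0.24 for the 12 h groups, then 9.27 ± 0.81 and 8.98 ± 0.67 at 48 h (control, then CsA; SD, n = 3).

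PTX3 passed the test in no comparison. The time difference was -0.25 in controls (SE 0.40, 95% interval -1.16 to 0.66; limma adjusted p = 0.66) and -0.42 under CsA (95% interval -1.33 to 0.49; limma adjusted p = 0.48). Without array 1 of the 48 h groups the difference was 0.20 in controls and -0.04 under CsA. Without array 3 of the 48 h controls it was -0.58 in controls. The CsA difference was -0.12 at 12 h (95% interval -1.03 to 0.79) and -0.29 at 48 h (95% interval -1.20 to 0.62). The latter turned to 0.09 without CsA array 1 and to 0.04 without control array 3, and was -0.74 without control array 1. The pairs at 48 h differed by -0.14, -0.02 and -0.72, all with CsA below control, as for 16.2% of tested genes. At 12 h they were 0.03, -0.18 and -0.21. With these pairs as a fixed replicate block the limma adjusted p for CsA was 0.91 at 12 h and 0.44 at 48 h.

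HAS3, the listed synthase that passed the filter, was nearly constant at 12 h and widely scattered at 48 h. The 12 h controls read 10.04, 10.05 and 10.07 (log2), and CsA at 12 h read 10.08, 10.15 and 10.03. The 48 h controls read 7.34, 8.17 and 9.16. CsA at 48 h read 6.92, 7.93 and 10.23. The 48 h controls lay below all 12 h controls, whereas array 3 of CsA at 48 h lay above every 12 h array.

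The HAS3 means were 10.05 ± 0.02 and 10.09 ± 0.06 for the 12 h groups, then 8.22 ± 0.91 and 8.36 ± 1.70 at 48 h (control, then CsA; SD, n = 3). In the 12 h controls only 3.75% of tested genes had a smaller SD than HAS3, and in CsA at 48 h 99.4% did. In controls HAS3 stood 3.55-fold lower at 48 h than at 12 h, a log2 difference of -1.83 (SE 0.69, 95% interval -3.43 to -0.23). This missed the threshold, with a limma adjusted p of 0.074, and came to 0.048 with CsA and control arrays of the same number and time as a random replicate block. Under CsA it stood 3.31-fold lower, a log2 difference of -1.73 (95% interval -3.32 to -0.13, limma adjusted p = 0.11). A second HAS3 probe set, between 3.53 and 4.66 and not passing the filter, gave -0.48 in controls and 0.18 under CsA. For CsA against control at 48 h that probe set gave 0.51.

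Whether HAS3 was called depended on the fit and on single 48 h arrays. In the 6 control arrays alone it was called (limma adjusted p = 0.023), and in the 6 CsA arrays alone it was not (0.23). Without array 3 of CsA at 48 h the difference under CsA was -2.66 (limma adjusted p = 0.0024), and the adjusted p in controls, through the shared spread, came to 0.0062. Without array 3 of the 48 h controls the difference in controls was -2.29 (limma adjusted p = 0.043). Without both arrays numbered 3 the limma adjusted p was 4.77e-04 in controls and 3.67e-04 under CsA. Leaving out array 1 of CsA at 48 h, which enters the controls' test only through the spread, gave 0.032 in controls. Array 1 acted the other way: without array 1 of the same 48 h group the difference in controls was -1.39 (limma adjusted p = 0.23), and under CsA it was -1.01 (0.35). Leaving out both arrays of a number was chosen after seeing the data.

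CsA and control did not differ detectably in HAS3 at 12 h, with a mean difference of 0.04 (SE 0.69) and pairs of 0.05, 0.10 and -0.05. This SE rests on the spread shared by all 12 arrays, while the SDs of the 12 h groups were 0.02 and 0.06. In the 6 arrays of 12 h alone the limma adjusted p was 0.95. At 48 h the mean was 0.14 (95% interval -1.46 to 1.74), made of pairs at -0.42, -0.24 and 1.08. CsA was thus lower in pairs 1 and 2 and higher in pair 3, and the mean was -0.80 without array 3 of CsA, 0.86 without its array 1, -0.30 without control array 1 and 0.60 without control array 3. The limma adjusted p was 1.00 at both times in the fit of all 12 arrays without pairs. With the pairs as a fixed replicate block it was 0.995 at 12 h and 0.84 at 48 h.

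HAS2, the synthase most often tied to inducible hyaluronan production, was not above the filter on any array. Its log2 level lay between 2.70 and 2.89, with group means of 2.73 ± 0.04, 2.77 ± 0.07, 2.74 ± 0.02 and 2.78 ± 0.10 in 12 h controls, 12 h CsA, 48 h controls and 48 h CsA (SD, n = 3). A second HAS2 probe set lay between 2.37 and 2.44. HAS2 was not tested.

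CD44, the main hyaluronan receptor, was lower at 48 h than at 12 h on average in both treatments, with no call. The 12 h controls read 11.72, 11.85 and 11.73 (log2), and CsA at 12 h read 11.55, 11.76 and 11.51. The 48 h controls read 10.55, 11.23 and 11.42, and CsA at 48 h read 10.27, 11.26 and 11.48. Within each treatment no 48 h array reached the lowest 12 h array, and array 1 was the lowest at 48 h. The margin under CsA was small, with 11.48 at 48 h against 11.51 at 12 h.

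The CD44 means were 11.77 ± 0.07 and 11.61 ± 0.14 for the 12 h groups, then 11.06 ± 0.46 and 11.00 ± 0.64 at 48 h (control, then CsA; SD, n = 3). In controls the time difference was -0.70 (1.63-fold lower, SE 0.30, 95% interval -1.39 to -0.02; limma adjusted p = 0.10), and under CsA it was -0.60 (1.52-fold lower, 95% interval -1.29 to 0.08; limma adjusted p = 0.18). Without both 48 h arrays numbered 3 the limma adjusted p came to 0.031 in controls and 0.039 under CsA. Without both numbered 1 the difference in controls shrank to -0.44 with a limma adjusted p of 0.038, and the controls' p was 0.026 without CsA array 1, which enters it only through the spread. Without control array 1 alone it was 0.32. Under CsA the difference was -0.24 without CsA array 1 (limma adjusted p = 0.56). Of 13 CD44 probe sets 8 passed the filter, and all 8 had a 48 h mean below the 12 h mean in both treatments.

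CsA stood below control for CD44 in each 12 h pair, by -0.17, -0.09 and -0.22, as for 22.5% of tested genes. The mean was -0.16 (SE 0.30, 95% interval -0.85 to 0.52, limma adjusted p = 1.00). At 48 h the pairs were -0.27, 0.04 and 0.06, and the mean was -0.06 (95% interval -0.74 to 0.63). It turned to 0.31 without CsA array 1, 0.02 without control array 2 and 0.12 without control array 3. The groups overlapped at both times. With the pairs as a fixed replicate block the limma adjusted p for CD44 was 0.77 at 12 h and 0.79 at 48 h.

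VCAN, the versican core protein, had the narrowest range of the expressed genes listed, 12.57 to 13.48 (log2). The 12 h controls read 13.02, 13.02 and 12.82 (log2), and CsA at 12 h read 12.94, 13.15 and 12.83. The 48 h controls read 13.02, 13.48 and 13.25, and CsA at 48 h read 12.57, 13.12 and 13.08. All groups overlapped. The means were 12.95 ± 0.12 and 12.98 ± 0.16 for the 12 h groups, then 13.25 ± 0.23 and 12.92 ± 0.31 at 48 h (control, then CsA; SD, n = 3).

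At 48 h VCAN was below control with CsA in each pair, by -0.45, -0.36 and -0.17, as 16.2% of tested genes were. The mean difference was -0.33 (SE 0.17, 95% interval -0.72 to 0.07), with an unadjusted p of 0.086 and a limma adjusted p of 1.00. It was -0.15 without CsA array 1. The intervals and p-values of VCAN come from the fit without pairs. With the same-numbered pairs as a fixed replicate block the limma adjusted p was 0.98 at 12 h and 0.35 at 48 h. All 5 VCAN probe sets, which measure the same arrays, gave a CsA mean below the control mean at 48 h. At 12 h the pairs were -0.08, 0.13 and 0.02, for a mean of 0.02 (95% interval -0.37 to 0.42). The difference between these CsA differences was -0.35 (SE 0.24, 95% interval -0.91 to 0.21; limma adjusted p = 1.00). The 48 h minus 12 h difference of VCAN was 0.30 in controls (95% interval -0.10 to 0.70; limma adjusted p = 0.21) and -0.05 under CsA (95% interval -0.45 to 0.35; limma adjusted p = 0.86).

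**Figure D2:**
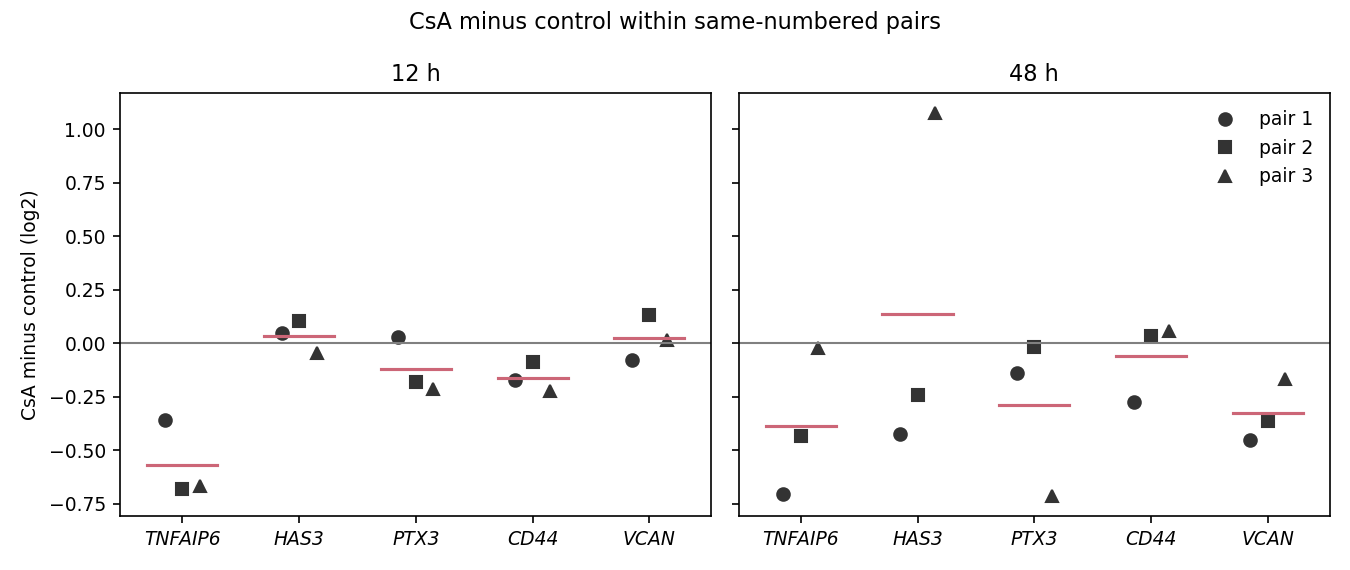
CsA minus control (log2) within each same-numbered pair of arrays at 12 h (left) and 48 h (right) for the 5 tested genes, with marker shape for the pair and a red bar for the mean of 3 pairs. TNFAIP6 and CD44 lie below 0 in all pairs at 12 h, TNFAIP6, PTX3 and VCAN at 48 h, and the third HAS3 pair at 48 h lies at 1.08.

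Over the 5 tested genes, CsA against control at 12 h gave 0 calls in the fit without pairs (percent of all tested genes called: 0). In that fit 0 of the 5 were below an unadjusted p of 0.05, and no unadjusted p of the 5 is given here for the fit with pairs. The fit without pairs also takes its SE at 12 h partly from the 48 h arrays. In the 6 arrays of 12 h alone the limma adjusted p was 0.90 for PTX3, 0.81 for CD44 and 0.98 for VCAN. The median difference was -0.12, against -0.01 over all tested genes, and 3 of the 5 were below 0, as 54.7% of all tested genes were. At 48 h the fit without pairs again gave 0 calls (0% of all genes called), with a median of -0.29 against -0.02 over all genes. There 4 of 5 were below 0, as 54.7% of all tested genes were. Without TNFAIP6, which was near the floor at 48 h, 3 of 4 were below 0 and the median was -0.18. Across all 10508 genes limma without pairs called none in either CsA comparison. There 138 genes (1.31%) at 12 h and 265 (2.52%) at 48 h had an unadjusted p under 0.05. That fit ignores the pairing, so these low shares do not show that CsA had no effect. With the same-numbered pairs as a fixed replicate block limma called 3 genes at 12 h and 0 at 48 h. In that block fit more genes had an unadjusted p under 0.05 at both times than without pairs. None of the 5 had CsA and control groups without overlap, against 6.57% of genes wholly lower and 5.37% wholly higher with CsA at 12 h, and 2.49% and 2% at 48 h. CsA was lower in all 3 pairs for 2 of the 5 at 12 h and 3 of the 5 at 48 h, against 22.5% and 16.2% of tested genes. It was higher in all 3 pairs for 0 of the 5 at both times, against 18.9% and 13.4%. The CsA difference was not shown to change between the times, with 0 of 5 called in the fit without pairs (0% of all genes called; 162 genes had an unadjusted p under 0.05). With the pairs as a fixed replicate block more than these 162 genes had such a p.

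For time in controls, 0 of the 4 genes other than TNFAIP6 were called, while 26.2% of all tested genes were. HAS3 and CD44 had an unadjusted p under 0.05, as 41.8% of all genes did, and both had 48 h controls wholly below 12 h controls, as 25.2% of genes did. None of the 4 lay wholly higher at 48 h, as 24.9% of genes did. The median of the 4 was -0.48, against 0.0076 over all genes. Under CsA 0 of 4 were called and 14.4% of all genes were. There HAS3 alone had an unadjusted p under 0.05, as 33.2% of all genes did, and CD44 alone had 48 h arrays wholly below the 12 h arrays, as 18.9% of genes did. None lay wholly higher, as 16% of genes did. The median of the 4 was -0.51, against 0.01 over all genes. The 2 time comparisons use different arrays but share the estimate of the spread.

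**Figure D3:**
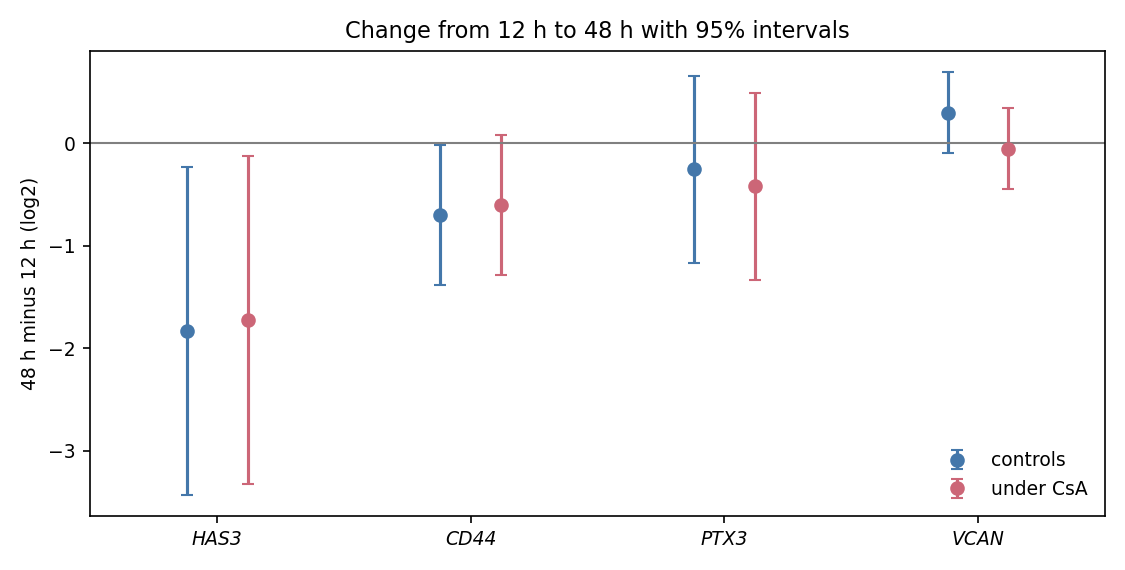
Change from 12 h to 48 h (log2) for HAS3, CD44, PTX3 and VCAN in controls (blue) and under CsA (red), with n = 3 arrays a group. Points carry 95% intervals from the limma SE and 8 residual degrees of freedom. TNFAIP6 is left out because it was chosen on this change. The HAS3 intervals, -3.43 to -0.23 and -3.32 to -0.13, are the widest. Those of PTX3 and VCAN, and that of CD44 under CsA, include 0.

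The expressed genes of the list differed in how alike their levels ran over the 12 arrays. Correlations are given as a description across arrays that share the time split and the spread at 48 h. Pearson's r was 0.90 between TNFAIP6 and HAS3, 0.91 between HAS3 and CD44, and 0.84 between TNFAIP6 and CD44. PTX3 was nearest to CD44 (0.81) and lay at 0.52 with TNFAIP6. VCAN was at -0.15 with TNFAIP6, 0.06 with HAS3, 0.30 with CD44 and 0.51 with PTX3. The scatter differed as well: TNFAIP6 had an SD above that of 97.7% to 99.4% of tested genes in every group, whereas VCAN lay between 47.6% and 68%.

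The 5 tested genes most like TNFAIP6 by Pearson's r over the 12 arrays were CDC20 (0.995), ABCE1 (0.990), DPYSL3 (0.989), CXCL5 (0.989) and TRIP13 (0.989). CDC20 activates the anaphase-promoting complex and CXCL5 is a neutrophil-attracting chemokine. CDC20 read 11.36, 11.47 and 11.75 (log2) in 12 h controls, 11.22, 11.40 and 11.58 with CsA at 12 h, 10.12, 10.36 and 10.68 in 48 h controls, and 9.93, 10.29 and 10.79 with CsA at 48 h. As for TNFAIP6, array 1 was the lowest and array 3 the highest in each group. CXCL5 averaged 9.21 ± 0.40 at 12 h and 6.64 ± 0.60 at 48 h in controls, and 8.92 ± 0.27 and 6.59 ± 0.90 under CsA (SD, n = 3).

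HAS3 was most like PCNA (0.995), the sliding clamp of DNA replication, then ZNF367 (0.994) and DTL (0.993). PCNA averaged 13.28 ± 0.03 and 13.30 ± 0.03 in the 12 h groups and 12.15 ± 0.57 and 12.14 ± 1.19 at 48 h (control, then CsA; SD, n = 3), so it too was tight at 12 h and wide at 48 h. The nearest genes to PTX3 were DDX31 (0.941), CCN1 (0.936), a secreted matricellular protein, and ADAMTS1 (0.932), a protease that cleaves versican. The nearest to CD44 were SMC2 (0.981), a condensin subunit, KHDRBS1 (0.981) and SFPQ (0.980), both RNA-binding proteins. The nearest to VCAN were CLDN1 (0.923), a tight junction protein, CTSC (0.916) and STK39 (0.911).

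**Figure D4:**
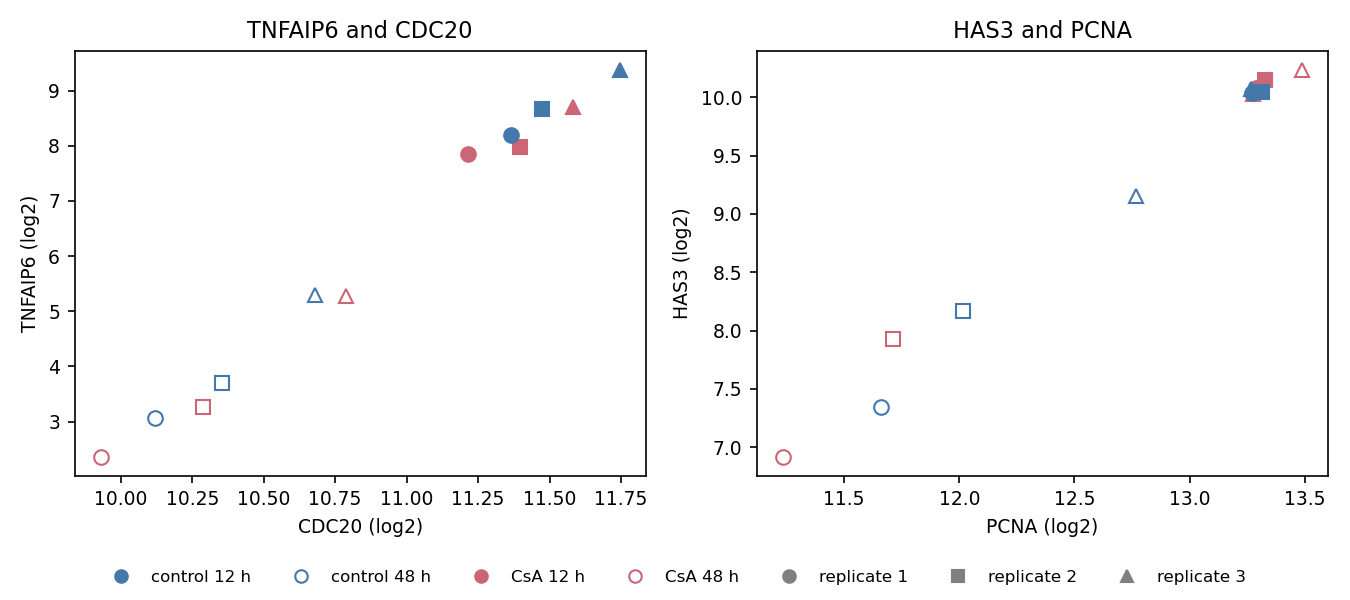
Log2 expression of TNFAIP6 against CDC20 (left) and of HAS3 against PCNA (right) on the 12 arrays, with colour for treatment, filled markers for 12 h, open markers for 48 h and shape for the replicate number. The 12 h arrays sit together at the upper right of both plots, except that array 3 of CsA at 48 h lies above them for HAS3, at 10.23.

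The other genes of the hyaluronan pathway were taken from 7 lists with 51 genes beside the 6. The arrays named 46 of these with a single symbol, and 21 passed the filter. In controls 4 of the 21 rose with time and 2 fell, against 12.5% and 13.7% of all tested genes, and the median difference was 0.04. Under CsA 1 rose and 1 fell, against 6.77% and 7.58% of all genes, with a median of 0.0010. CsA against control gave 0 of 21 at 12 h and 0 of 21 at 48 h, with medians of 0.02 and -0.04.

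Of 7 enzymes that supply sugar nucleotides 5 were tested, and 2 rose with time in controls. The synthase HAS1 was not analysed here. GFPT1, the first enzyme of the hexosamine pathway, rose by 1.49 (SE 0.44; limma adjusted p = 0.034), from 10.68 ± 0.04 to 12.17 ± 0.56 (log2, SD, n = 3). Its call was lost without array 1 (1.26, limma adjusted p = 0.11) or 2 of the 48 h controls, and without any single 12 h control array (adjusted p 0.079 to 0.089). UGDH, which makes UDP-glucuronate and was named after its values were seen, rose by 0.55 (SE 0.17; limma adjusted p = 0.038). That call was lost without any single control array of either time or without CsA array 1 at 12 h (limma adjusted p 0.056 to 0.13). Under CsA none of the 5 was called.

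Of 10 breakdown genes 4 were tested. HEXA, a subunit of lysosomal hexosaminidase, rose by 0.99 in controls (SE 0.20; limma adjusted p = 0.0084) and by 0.98 under CsA (limma adjusted p = 0.014). The call under CsA was lost without CsA array 3 at 12 h (adjusted p = 0.063). CEMIP2, a cell surface hyaluronidase, was at -1.02 in controls and -0.89 under CsA, and passed in neither (limma adjusted p = 0.085 in controls).

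Among the receptors other than CD44, HMMR, which binds hyaluronan and also the mitotic spindle, was the 1 of 5 that was tested. It fell by 1.19 in controls (SE 0.32; limma adjusted p = 0.024), from 11.49 ± 0.27 to 10.30 ± 0.38 (log2, SD, n = 3), and its adjusted p was 0.051 to 0.086 without array 1 or 2 of the 48 h controls or any single 12 h control array. Of 9 CD44 partners and sheddases 7 were tested. EZR, which links CD44 to actin, fell by 0.56 in controls (SE 0.10; limma adjusted p = 0.0046) and by 0.48 under CsA (limma adjusted p = 0.015). ADAM17, a protease that sheds membrane proteins, rose by 1.02 in controls (SE 0.25; limma adjusted p = 0.016). The call of EZR under CsA was lost without CsA array 1 at 48 h (adjusted p = 0.052) or CsA array 1 or 3 at 12 h (0.058 and 0.056). That of ADAM17 was lost without array 1 of the 48 h controls (0.059) or array 2 or 3 of the 12 h controls (both 0.055).

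The partners that TNFAIP6 acts on were at the floor. ITIH1 to ITIH5, which encode the heavy chains and a relative of them, and AMBP, which encodes the bikunin light chain, lay between 2.02 and 2.96 on all arrays, so 0 of these 6 were tested. Of the hyalectans and link proteins other than VCAN, 1 of 7 was tested (BCAN, at 4.41 to 4.49) and it was not called. Of 6 versican-cleaving ADAMTS enzymes 3 were tested and 0 were called in any comparison. ADAMTS5, named after its values were seen, averaged 3.08 ± 0.19 and 3.19 ± 0.23 in the 12 h groups and 4.19 ± 0.52 and 4.43 ± 1.07 at 48 h (control, then CsA; SD, n = 3), and did not pass the filter.

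**Figure D5:**
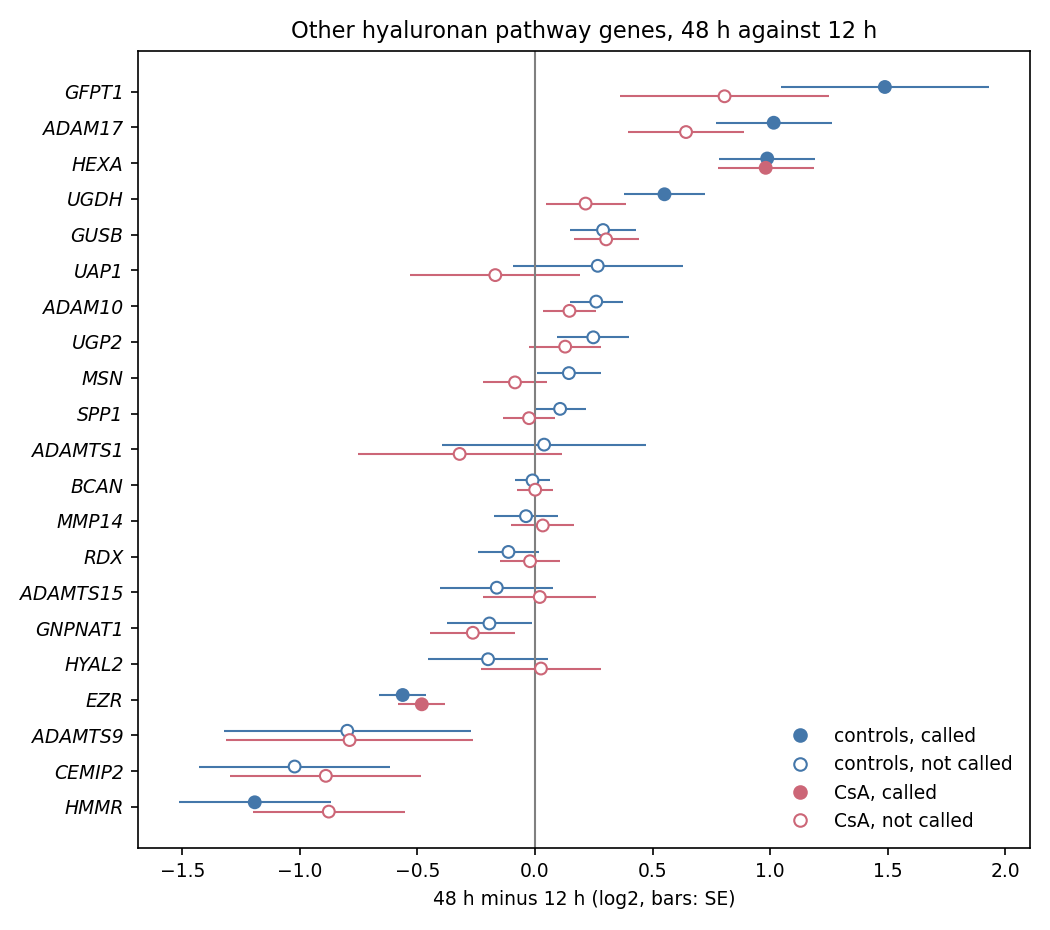
Change from 12 h to 48 h (log2, bars show the SE) for the 21 tested hyaluronan pathway genes other than the 6 listed ones, in controls (blue) and under CsA (red), filled where the limma adjusted p was under 0.05. GFPT1 (1.49), ADAM17, HEXA and UGDH lie at the top and EZR, CEMIP2 and HMMR (-1.19) toward the bottom, and HEXA and EZR are filled in both treatments.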

How the data were processed

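Total RNA of 12 HK-2 cultures was hybridised to Affymetrix arrays. The deposited values are log2 expression, a scale judged from their range. Per the submitters' processing notes the authors used GCRMA, which corrects background by probe sequence and then applies quantile normalization. Its version is not given in the sources used here. Of 54675 probe sets, 62 controls were left out, 41091 carried exactly 1 symbol, 1801 several and 11721 none, and 54 probe sets had a symbol with no match in the RefSeq-based name table. Arrays have no read depth, and their number limits the precision.

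Differences were fitted with limma 3.58.1 in R 4.3.3 as 4 group means over 12 arrays, moderated by eBayes without trend, two-sided, with Benjamini-Hochberg adjustment over the 10508 tested genes (threshold 0.05). The script was run on simulated data with independent arrays and the same SD in all groups. That run had neither the pairing nor the wider 48 h spread of these arrays, so it cannot speak to their effect. The genes and lists were chosen with earlier results of these data known. Other pathway genes were named up to 3 in each direction per comparison, by absolute moderated statistic, and like genes by Pearson's r, 5 for TNFAIP6 and 3 for each other gene. Same-numbered arrays of CsA and control deviated together (r across genes 0.37, 0.53 and 0.59 at 12 h, and 0.78, 0.54 and 0.74 at 48 h). The pairing was thus read from the data, the meaning of the numbers being unstated. No such relation held between times (-0.14 to 0.23). Alternatives were the replicate block, the filter, the probe set rule, normalization, moderation, array weights, the arrays fitted, and leaving out arrays.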

Additional observations from a re-analysis of the deposited data

How the results depend on the processing

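Over 756 alternative values for the 30 results of the 6 genes, 699 kept their direction and their side of the threshold or, for HAS2 and for TNFAIP6 with time, which were not tested, moved by less than 1 SD. The other alternatives were 37 that changed sign and 20 that gained a call. The 699 are not a measure of robustness, because many of them could not change sign. Leaving out an array outside the comparison, or changing the filter, the moderation or the block, leaves the difference itself as it was. With same-numbered pairs as a fixed replicate block 3 genes were called for CsA at 12 h, 5 in its 6 arrays alone and 8 with trend and robust moderation, which also called 2 for the difference of CsA effects. The 6 arrays alone, or no filter, gave 1 at 12 h. No alternative called a gene for CsA at 48 h. For time in controls 2756 genes became 4981 with array weights, 4835 without both 48 h arrays numbered 3, and 1322 to 4039 on leaving out 1 array (1322 to 1575 without any 12 h control array or without array 1 or 2 of the 48 h controls). For time under CsA 1508 became 34 in the 6 arrays alone, 988 with no filter, 4291 with array weights, 820 without both arrays numbered 1, 4485 without both numbered 3, and 432 to 3885 on leaving out 1 array (3885 without CsA array 3 at 48 h, and 432 to 784 without any other CsA array). The replicate number as a block across times, where numbers share only a name, gave 2394, and 2473 with trend and robust moderation. With that block the limma adjusted p in controls was 0.039 for HAS3 and 0.045 for CD44, and with pairs as a random block 0.048 and 0.057. The replicate block changed no other call of the 6 genes. The alternatives that leave out both 48 h arrays of a number, the block in the 6 arrays alone and the block with trend were added after seeing the data.

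On leaving out 1 array in turn, CsA at 48 h ranged from -1.21 to 0.25 for TNFAIP6, -0.80 to 0.86 for HAS3, -0.74 to 0.087 for PTX3 and -0.32 to 0.31 for CD44. The difference of CsA effects ranged from -0.64 to 0.82 for TNFAIP6, -0.83 to 0.82 for HAS3, -0.62 to 0.21 for PTX3 and -0.16 to 0.47 for CD44. VCAN ranged from -0.065 to 0.095 for CsA at 12 h and from -0.15 to 0.13 for time under CsA, and PTX3 from -0.58 to 0.20 for time in controls. Array weights turned the difference of CsA effects to -0.015 for TNFAIP6, -0.27 for HAS3 and 0.016 for PTX3, HAS3 with CsA at 48 h to -0.24, VCAN with CsA at 12 h to -0.0010 and VCAN with time under CsA to 0.064. Median centring turned VCAN with CsA at 12 h to -0.0045. Without both arrays numbered 3, HAS3 turned to -0.33 with CsA at 48 h and to -0.37 for the difference of CsA effects, and PTX3 to 0.04 for the latter. Without both numbered 1, CD44 with CsA at 48 h turned to 0.047, PTX3 with time in controls to 0.20 and VCAN with time under CsA to 0.13. Array weights also called HAS3 (limma adjusted p = 9.0e-04 in controls, 7.4e-04 under CsA), CD44 (0.020) and VCAN (0.044) for time in controls. The cause of these changes was not tested.

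Of the pathway genes, HEXA under CsA (limma adjusted p = 0.067) and EZR under CsA (0.083) lost their call in the 6 arrays alone, and GFPT1 (0.088), UGDH (0.075) and HMMR (0.063) with no filter. Without both 48 h arrays numbered 1, GFPT1 (0.056) and UGDH (0.079) lost theirs, and without both numbered 3, UGDH (0.057). On leaving out 1 array the call was lost for GFPT1 at adjusted p from 0.079 to 0.11, for UGDH from 0.056 to 0.13, for HMMR from 0.051 to 0.086, for EZR under CsA from 0.052 to 0.058, for ADAM17 from 0.055 to 0.059 and for HEXA under CsA at 0.063. Levels under 4 are near the floor of the arrays, which limits what can be said of HAS2 and of TNFAIP6 at 48 h.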
